A study of Homo sapiens with 9 samples.

Results

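The insulin-like growth factor (IGF) genes described here are IGFBP2 to IGFBP7, which encode secreted IGF-binding proteins, the receptors IGF1R and INSR, and the docking proteins IRS1 and IRS2. They were taken by symbol from the deposited expression table, which held all 10 among 56609 symbols. RNA was sequenced in MCF10A, an established, non-tumorigenic human breast epithelial cell line, with 3 samples in each of 3 groups. The control was untreated, the high calcium group received 10 mM calcium with the ionophore ionomycin (labelled as 1 mM) and the TGFb3 group received 10 nM transforming growth factor beta 3, both for 16 h. All groups grew in the same medium, which per the labels held insulin, horse serum, EGF, hydrocortisone and cholera toxin, so no group was without a ligand of the insulin receptor. Calcium and ionomycin were given only together, so their effects cannot be told apart, and the samples come from 1 cell line. Nothing in the labels says that the 3 samples of a group came from separate cultures. The p-values therefore reflect the spread among these samples alone, and that spread may be technical.

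IGF1 and IGF2 bind the receptor tyrosine kinase IGF1R, and insulin binds its close relative INSR. Both receptors phosphorylate IRS1 and IRS2, which recruit PI 3-kinase and so activate AKT and mTOR and keep FOXO transcription factors out of the nucleus. Binding proteins hold IGFs outside the cell, and proteases such as PAPPA release them. In the mammary gland IGF signalling supports epithelial survival, and in rodents IGFBP5 is the binding protein known for its rise in involution.

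Values are TPM (a share of each library, normalised for gene length and scaled to the same total), so levels can be set side by side between genes, but the sequencing depth is unknown. Differences are of log2(TPM + 1) with a standard error from a limma fit across 13968 symbols, called at a Benjamini-Hochberg adjusted p under 0.05. Such a difference understates the change of a gene with low values. The labelled cell type was checked against markers. KRT5 and KRT17, keratins of basal epithelium, were at 1070 TPM or more in all 9 samples. Another basal keratin, KRT14, was far lower, at means of 7.55, 24.4 and 20.2 TPM in control, high calcium and TGFb3. Among epithelial markers, KRT7 was at 1680 TPM or more in every sample, KRT8 at 164 or more and KRT18 at 228 or more. PGR, PTPRC, CDH5, COL1A2 and ADIPOQ were listed at 0 in all 9. The summed level of 5 fibroblast markers ranged from 1.77 to 2.78 TPM in the controls, 7.81 to 8.67 TPM in high calcium and 12.5 to 15.3 TPM in TGFb3, most of it DCN, and its part in the results was not tested. Sums of 4 endothelial markers (3.81 to 4.51, 6.96 to 7.19 and 1.54 to 2.12 TPM) were mostly KDR, and those of 4 leukocyte markers (18.1 to 21.4, 32.3 to 39.1 and 1.99 to 3.26 TPM) were all CD14. Mitochondrially encoded RNA made up 22.7 ± 0.914% of all TPM in control samples, 11.5 ± 0.371% with high calcium and 22.7 ± 0.588% with TGFb3 (SD, n = 3). The nuclear RNA MALAT1 stood at 158 ± 44.7, 424 ± 32.2 and 204 ± 12.4 TPM in the same order, and its part in the high calcium results was not tested. The median log2 difference of all tested symbols was 0.22 for high calcium against control and -0.06 for TGFb3 against control. Differences relative to that median are given for those of the 10 genes that were called against the control.

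The windows before the RefSeq start sites (build GRCh38.p14) of 4 genes that responded are shown first, because IGFBP3 and IRS1 changed under both treatments, IRS2 parted from IRS1 in high calcium, and IGF1R responded to TGFb3. They are written 5′ to 3′ on the strand of the gene, from 250 bases before the start, with the GC box bound by SP1 (GGGCGG, or CCGCCC on the other strand) in capitals. The last 2 bases before the IGFBP3 start are left out because they lie in an IGFBP3 exon of GENCODE release 29, in which the gene extends further upstream.
IGFBP3: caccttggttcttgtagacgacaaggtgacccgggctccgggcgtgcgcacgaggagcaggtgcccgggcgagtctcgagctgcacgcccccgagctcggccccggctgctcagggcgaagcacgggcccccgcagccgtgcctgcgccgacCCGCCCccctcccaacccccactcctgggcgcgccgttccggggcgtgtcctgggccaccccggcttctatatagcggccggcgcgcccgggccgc
IRS1: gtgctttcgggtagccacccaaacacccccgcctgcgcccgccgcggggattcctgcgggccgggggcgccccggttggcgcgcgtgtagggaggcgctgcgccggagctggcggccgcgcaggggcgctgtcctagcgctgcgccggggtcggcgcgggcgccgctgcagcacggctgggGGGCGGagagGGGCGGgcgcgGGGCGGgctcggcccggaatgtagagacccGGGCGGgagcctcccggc
IRS2: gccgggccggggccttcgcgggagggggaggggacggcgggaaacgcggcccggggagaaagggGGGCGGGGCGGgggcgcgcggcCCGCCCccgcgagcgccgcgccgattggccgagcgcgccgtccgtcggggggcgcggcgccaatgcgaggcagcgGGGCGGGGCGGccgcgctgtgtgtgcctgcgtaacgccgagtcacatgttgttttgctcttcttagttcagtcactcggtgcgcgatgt
IGF1R: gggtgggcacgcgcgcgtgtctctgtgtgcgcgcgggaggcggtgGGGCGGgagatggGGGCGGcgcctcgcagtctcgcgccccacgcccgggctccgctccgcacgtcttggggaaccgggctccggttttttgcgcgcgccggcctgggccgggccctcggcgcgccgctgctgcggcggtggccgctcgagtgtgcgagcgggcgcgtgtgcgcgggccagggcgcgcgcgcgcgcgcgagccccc
They lie at chr7:45921275-45921522 (minus strand), chr2:226799821-226800070 (minus), chr13:109786584-109786833 (minus) and chr15:98648289-98648538 (plus).

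GC content was high in all 4 of these windows, at 76.0% for IGFBP3, 80.8% for IRS1, 76.4% for IRS2 and 81.2% for IGF1R, against a median of 58.0% over the same 250 bases of 35116 promoters in the table. High GC was not limited to these 4 genes. INSR, which was called only under other scalings of the values, had 78.4%. IGFBP4, listed at 0 throughout and so not tested for a response, had 71.6%. IGFBP6, which responded, had 61.2%, but 231 of its 250 bases lie in an exon of its own GENCODE gene. Its value is therefore mostly that of the exon, not of sequence before the gene. Whether GC content marks the genes that responded was not tested. The 250 bases held 2 GC boxes in IGFBP3, of which the one 6 bases before the start runs into the exon, 4 in IRS1, 5 in IRS2 and 2 in IGF1R, with overlapping boxes in IRS2 counted apart. INSR held 4. Of the 10 genes, 9 had an entry, and 8 of these held a GC box in the 300 bases from 250 before to 50 after a start, against 45.0% of all promoters; IGFBP5 held none. The SMAD letters CAGAC, searched on both strands like all motifs, were in 2 of the 9 genes, IGFBP2 and INSR, against 45.3% of all promoters. The NFAT core GGAAA was in 5 of 9 genes (61.2% of all promoters), and in 3 of 9 when only the bases before the start were searched. The FOXO letters GTAAACA were in IGFBP6 alone (3.42%). All motif matches in IGFBP6 lie inside its GENCODE gene, not upstream of it. A gene was counted if any of its entries held the letters, and IGFBP2 had several, while the shares count each of the 35116 promoters. These are matches of letters in a short window, not sites shown to be bound.

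**Figure D1:**
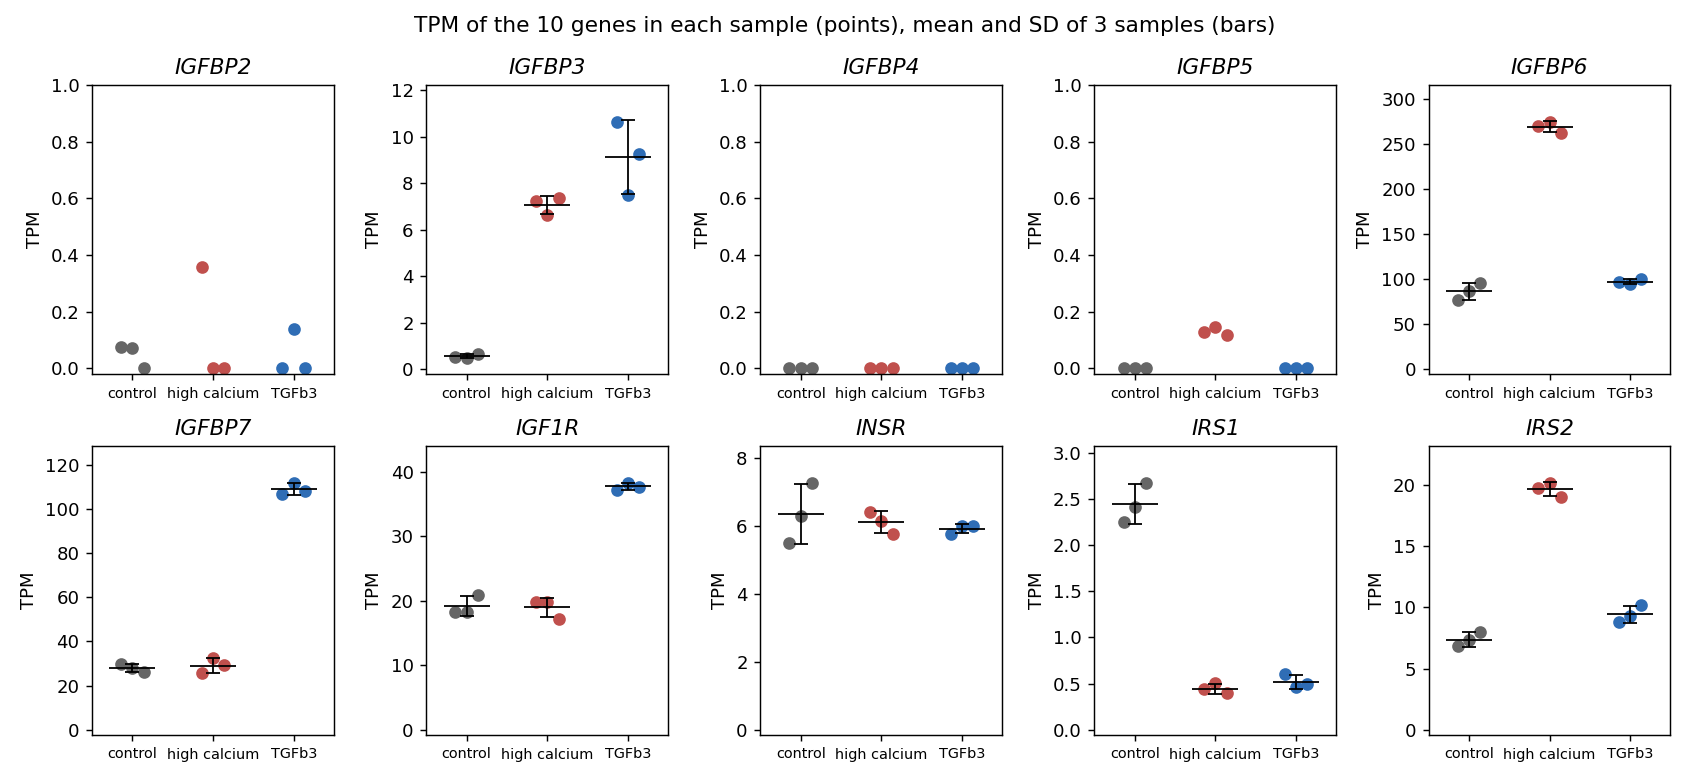
TPM of each of the 10 genes by group, 1 panel per gene with its own linear axis; points are samples and bars are the mean and SD of 3 samples, left out for the 3 genes with values listed at 0. IGFBP3 stands above the controls in both treatments, IGFBP6 and IRS2 are highest in high calcium, IGFBP7 and IGF1R in TGFb3, and IRS1 is lowest in both treated groups.

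Both treatments changed the make-up of the binding proteins. IGFBP6 was the most abundant in the controls and rose 3.12-fold in high calcium, IGFBP7 rose 3.89-fold in TGFb3, and IGFBP3 rose from below 1 TPM in both. The 6 binding proteins together went from 115 ± 8.25 TPM in the controls to 306 ± 7.36 in high calcium and 215 ± 1.8 in TGFb3 (SD, n = 3), as a description with no test.

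IGFBP6, a binding protein with a preference for IGF2, lies on chromosome 12 (53097436 to 53102345, plus strand). It was at 76.4, 86.8 and 96.1 TPM in the controls, at 270.5, 275 and 263 TPM with high calcium and at 97.4, 94.6 and 100.2 TPM in TGFb3. All high calcium samples stood above all others, while the highest control was above the lowest TGFb3 sample. The log2 difference was 1.63 ± 0.071 for high calcium (adjusted p = 3.7e-08), or 1.41 above the median of all symbols, and 1.46 ± 0.071 for high calcium against TGFb3 (adjusted p = 7.2e-08). The call in high calcium was kept under each of the 3 other scalings. For TGFb3 against control the difference was 0.18 ± 0.071 (adjusted p = 0.054). That value was called without control 3, the highest control (0.25, adjusted p = 0.0045), and under 3 other alternatives, over a range of adjusted p from 0.0045 to 0.18.

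IGFBP7, which binds IGFs weakly and is secreted into the matrix, lies on chromosome 4 (57030773 to 57110385, minus strand). Its values were 29.7, 27.8 and 26.4 TPM in the controls, 25.9, 32.4 and 29.2 TPM with high calcium and 107, 112 and 108 TPM in TGFb3. The TGFb3 samples stood well apart, and the other groups overlapped. It rose by log2 1.92 ± 0.076 in TGFb3 (adjusted p = 2.7e-08), or 1.98 relative to the median of all symbols, and was lower by -1.87 ± 0.076 in high calcium than in TGFb3 (adjusted p = 2.1e-08). In high calcium against control the difference was 0.05 ± 0.076 (adjusted p = 0.57). IGFBP7 overlaps POLR2B on the opposite strand, and the strandedness of the libraries is not given in the sources used here. POLR2B, a subunit of RNA polymerase II, moved the other way, from a mean of 131 TPM in the controls to 110 in both treated groups.

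IGFBP3, the main carrier of IGFs in serum, also acts on cells directly. It lies on chromosome 7 (45912245 to 45921874, minus strand), 18576 bp from IGFBP1. Control samples held 0.533, 0.478 and 0.672 TPM, high calcium 7.23, 6.62 and 7.36 TPM, and TGFb3 10.6, 7.49 and 9.27 TPM. Neither treated group overlapped the controls, and each TGFb3 sample was above each high calcium sample. Mean TPM was 12.6 times the control in high calcium (log2 2.37 ± 0.13, adjusted p = 1.9e-07) and 16.3 times in TGFb3 (2.69 ± 0.13, adjusted p = 8.9e-08). Relative to the median of all symbols these differences were 2.15 and 2.74. Both comparisons share the same controls, and IGFBP3 passed the filter of 1 TPM through the treated groups. The direct difference of high calcium from TGFb3 was -0.32 ± 0.13 (adjusted p = 0.053). Without TGFb3 2, the lowest TGFb3 sample, it was called (-0.44, adjusted p = 0.014), as it was under the 3 other scalings, which gave -0.57, -0.63 and -0.50 (adjusted p from 0.0017 to 0.19 over all alternatives).

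The ratio of IGFBP3 to the sum of the 5 other listed binding proteins does not depend on the scaling of a sample. It was 0.00489 ± 0.000666 in the controls, 0.0237 ± 0.0019 with high calcium and 0.0443 ± 0.00793 in TGFb3 (SD, n = 3). No 2 groups overlapped, at an exact two-sided permutation p of 0.1 in each of the 3 comparisons, the smallest that 3 samples against 3 can give (0.113 after adjustment over 9 ratio tests). IGFBP3 thus remained a small part of the binding protein RNA in every group.

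IGFBP2, IGFBP4 and IGFBP5 stayed below the filter of a mean of 1 TPM and were not tested. IGFBP4 was listed at 0 in all 9 samples. IGFBP2 measured 0.0756, 0.0727 and 0 TPM in the controls, 0.356, 0 and 0 TPM with high calcium and 0, 0.14 and 0 TPM in TGFb3. IGFBP5, its neighbour on chromosome 2 at a distance of 7668 bp, was listed at 0 in all controls and all TGFb3 samples. In high calcium IGFBP5 was at 0.13, 0.146 and 0.119 TPM, far below IGFBP3. With no filter on low values its log2 difference from the controls was 0.18, but IGFBP5 entered that fit only through high calcium. Its other 6 samples were at 0 and had no spread, so no p-value is given for it. The nearest gene above the filter was IRS1, with a mean of 1.14 TPM over the 9 samples, and the nearest below it was IGFBP2 with 0.0717 TPM.

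Of the receptors, IGF1R rose in TGFb3, and INSR was not called in either treatment. IGF1R lies on chromosome 15 (98648539 to 98964530, plus strand) and was at 18.3, 18.3 and 20.9 TPM in the controls. It was at 19.9, 19.9 and 17.2 TPM in high calcium and at 37.2, 38.3 and 37.7 TPM in TGFb3. TGFb3 samples stood clear of all others, and the other groups overlapped. IGF1R rose 1.97-fold in TGFb3 (log2 0.94 ± 0.073, adjusted p = 2.1e-06), or 1.00 relative to the median of all symbols. High calcium was lower than TGFb3 by -0.96 ± 0.073 (adjusted p = 1.7e-06). Against control, high calcium gave -0.02 ± 0.073 (adjusted p = 0.87), but IGF1R was called lower under all 3 other scalings, at -0.24 after median ratio rescaling, -0.24 after quantile normalisation and -0.20 without mitochondrial genes.

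INSR lies on chromosome 19 (7112255 to 7294034, minus strand). It measured 5.50, 6.29 and 7.28 TPM in the controls, 6.42, 6.16 and 5.77 TPM with high calcium and 5.78, 6.01 and 6.0 TPM in TGFb3. Each treated group lay within the range of the controls. The log2 difference was -0.04 ± 0.103 in high calcium (adjusted p = 0.75) and -0.08 ± 0.103 in TGFb3 (adjusted p = 0.54). After median ratio rescaling and quantile normalisation INSR was called lower in high calcium, at -0.25 and -0.41.

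The ratio of INSR to IGF1R was 0.33 ± 0.0259 in the controls, 0.323 ± 0.0126 with high calcium and 0.157 ± 0.00202 in TGFb3. Its TGFb3 values did not overlap those of either other group (exact permutation p = 0.1, adjusted p = 0.113). For high calcium against control the exact permutation p was 0.7. INSR and IGF1R together were at 25.6 ± 2.35 TPM in the controls, 25.1 ± 1.82 with high calcium and 43.7 ± 0.656 in TGFb3 (SD, n = 3).

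The docking proteins IRS1 and IRS2 moved apart under both treatments. IRS1 lies on chromosome 2 (226731317 to 226799759, minus strand) and was at 2.25, 2.41 and 2.67 TPM in the controls. It was at 0.439, 0.506 and 0.398 TPM in high calcium and at 0.603, 0.466 and 0.492 TPM in TGFb3. Every treated sample was below every control, and the treated groups overlapped each other. Control means were 5.46 times those of high calcium and 4.7 times those of TGFb3. The log2 difference of IRS1 was -1.25 ± 0.142 in high calcium (adjusted p = 3.3e-05) and -1.18 ± 0.142 in TGFb3 (adjusted p = 5.1e-05), or -1.47 and -1.12 relative to the median of all symbols. High calcium against TGFb3 gave -0.07 ± 0.142 (adjusted p = 0.68), and IRS1 was called lower in high calcium after quantile normalisation (-0.39, adjusted p = 0.033). IRS1 passed the filter of 1 TPM through the controls alone, and was not tested with a minimum of 5 TPM.

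IRS2, which like INSR is a known FOXO target, lies on chromosome 13 (109752698 to 109786568, minus strand). It measured 6.82, 7.31 and 8.0 TPM in the controls, 19.8, 20.2 and 19.0 TPM with high calcium and 8.83, 9.28 and 10.2 TPM in TGFb3. The 3 groups did not overlap. High calcium raised IRS2 2.66-fold (log2 1.30 ± 0.08, adjusted p = 4.2e-07), or 1.08 above the median of all symbols. TGFb3 raised it 1.28-fold (0.32 ± 0.08, adjusted p = 0.0067), or 0.37 relative to that median. The difference between the treatments was 0.99 ± 0.08 (adjusted p = 2.7e-06).

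IRS2 RNA was 3.02 ± 0.0225 times that of IRS1 in the controls, 44.2 ± 4 times in high calcium and 18.4 ± 3.29 times in TGFb3. In the treated groups the divisor is IRS1 at 0.398 to 0.603 TPM with unknown depth, so the size of their ratios is uncertain. No 2 groups overlapped in this ratio (exact permutation p = 0.1 in each comparison, adjusted p = 0.113). The sum of IRS1 and IRS2 was 9.82 ± 0.807 TPM in the controls, 20.1 ± 0.629 with high calcium and 9.94 ± 0.635 in TGFb3 (SD, n = 3). In TGFb3, therefore, the loss of IRS1 and the gain of IRS2 were of like size in TPM, while in high calcium the sum was higher in every sample.

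**Figure D2:**
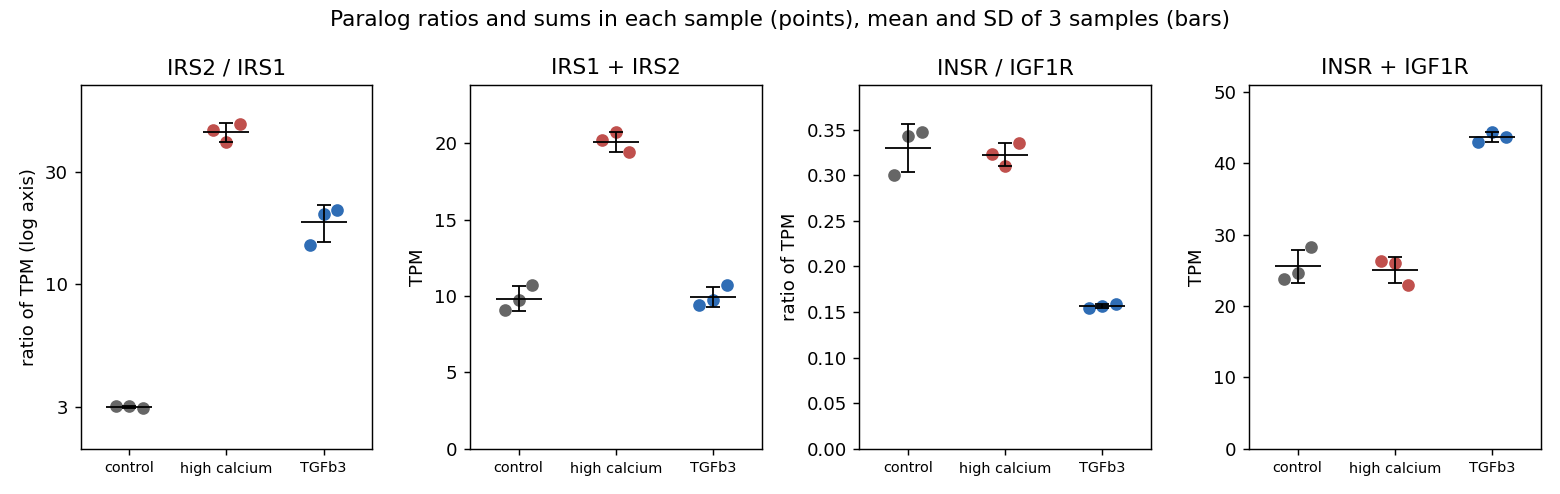
IRS2 to IRS1 ratio (log axis), IRS1 plus IRS2 in TPM, INSR to IGF1R ratio and INSR plus IGF1R in TPM, by group; points are samples and bars are the mean and SD of 3 samples. The IRS2 to IRS1 ratio is above 14 in every treated sample against about 3 in the controls, and the INSR to IGF1R ratio is lowest in TGFb3.

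In high calcium against control 3 of the 7 tested genes were higher, 1 was lower and 3 were not called, where 63.1% of all symbols were called (46.1% higher and 17% lower). In TGFb3 against control 4 were higher, 1 lower and 2 not called, where 59.6% of all symbols were called (26.5% higher and 33.1% lower). Between the treatments 2 were higher in high calcium, 2 lower and 3 not called, where 66.5% of all symbols were called (50.4% higher and 16.2% lower). Samples of the compared groups did not overlap for 4, 5 and 5 of the 7 genes, beside 69%, 63.8% and 71.2% of all symbols. The shares in either direction lie near the background. By direction they lie further from it in TGFb3, with 4 higher and 1 lower. With only 7 genes, these counts are not a result about the genes. What differs is which gene moved and by how much.

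**Figure D3:**
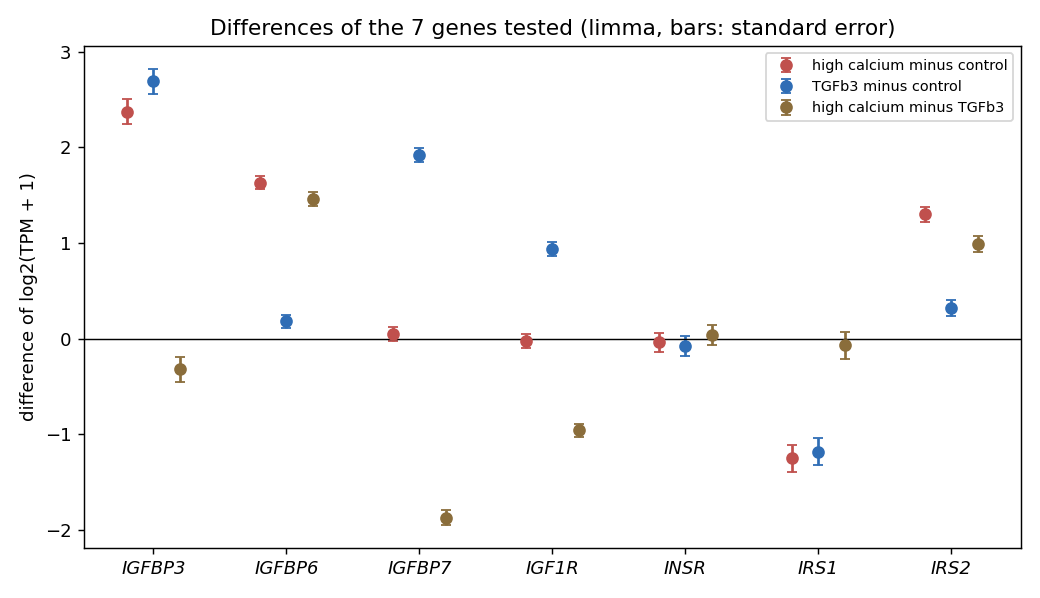
Differences of log2(TPM + 1) for the 7 tested genes in the 3 comparisons; points are limma estimates and bars their standard errors. IGFBP3 is above 2 and IRS1 below -1 against the control in both treatments, IGFBP6 and IRS2 are higher in high calcium than in TGFb3, and IGFBP7 and IGF1R lower.

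By level, the order in the controls was IGFBP6, IGFBP7, IGF1R, IRS2, INSR, IRS1 and IGFBP3, and IRS2 and INSR overlapped. In high calcium it was IGFBP6, IGFBP7, IRS2, IGF1R, IGFBP3, INSR and IRS1, with an overlap of IRS2 and IGF1R. In TGFb3 IGFBP7 came before IGFBP6 without overlap, followed by IGF1R, IRS2, IGFBP3, INSR and IRS1, with an overlap of IRS2 and IGFBP3. IRS1 and IGFBP3 thus changed places in both treatments.

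Some genes followed these patterns closely over the 9 samples, among 8711 symbols that averaged 10 TPM or more. This is a description, since the samples form 3 groups. Matches are named for 3 of the genes only. The closest symbol reached 0.998 for IGFBP6 and for IRS2, but 0.894 for INSR. The closest to IGFBP3 were JUN, a subunit of the transcription factor AP-1, the GTPase RRAS and the desmosomal p53 target PERP, each with a Pearson correlation of 0.995. JUN was at 6.08 ± 0.248, 34.9 ± 0.358 and 45.9 ± 1.38 TPM in control, high calcium and TGFb3. The closest to IGFBP7 were the lysosomal protease CTSB (0.997), MLLT11 and the matrix proteoglycan VCAN (both 0.996). CTSB was at 132 ± 10.3, 126 ± 12.2 and 382 ± 6.95 TPM. IRS1 was followed most closely by CDC20, an activator of the anaphase-promoting complex (0.997), the ribosome biogenesis factor TCOF1 (0.996) and the splicing helicase DHX15 (0.995). CDC20 was at 171 ± 8.9, 92.4 ± 2.45 and 92.0 ± 4.3 TPM.

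Among the 10 genes themselves the correlation over the 9 samples was 0.99 for IGFBP6 and IRS2, 0.98 for IGFBP7 and IGF1R, and -0.97 for IGFBP3 and IRS1.

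Other genes of the IGF pathway were read from 7 lists with 96 genes, of which 79 were tested. In high calcium 51 were higher, 7 lower and 21 not called, and in TGFb3 37 were higher, 22 lower and 20 not called. The called share was 73.4% and 74.7%, beside 63.1% and 59.6% of all symbols. After median ratio rescaling 33 were higher and 16 lower in high calcium, and 39 higher and 22 lower in TGFb3. Counts of the single lists are to be read against all 13968 symbols, of which 46.1% were higher and 17% lower in high calcium and 26.5% higher and 33.1% lower in TGFb3. After the rescaling 4240 of all symbols were higher and 4174 lower in high calcium.

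The ligands were at or near 0. IGF2, IGFBP1, IGFBPL1 and the insulin receptor-related receptor INSRR were listed at 0 in all 9 samples, and IGF1 and the serum carrier subunit IGFALS in 8 of 9. The other 3 genes of this list rose in both treatments, with the same count after median ratio rescaling and a median log2 difference of 1.12 in high calcium and 0.75 in TGFb3. IGF2R, which clears IGF2 and sorts lysosomal enzymes, was at 33.4 ± 2.9 TPM in the controls, 54.9 ± 2.68 in high calcium (log2 0.71 ± 0.068) and 40.1 ± 1.84 in TGFb3 (0.26 ± 0.068). LRP1, an endocytic receptor that can bind IGFBP3, rose from 4.26 ± 1.09 to 11.2 ± 0.644 and 11.6 ± 1.02 TPM and overlaps STAT6, which is on the opposite strand. STAT6 was at 49.5, 51.1 and 56.0 TPM in the same order, and reads of LRP1 and STAT6 cannot be told apart where they overlap. TMEM219, described as a receptor of IGFBP3, rose from 13.6 ± 1.53 to 30.8 ± 3.25 and 23.5 ± 0.863 TPM.

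Of 5 tested proteases of binding proteins and their inhibitors 4 rose in high calcium (3 after median ratio rescaling) and 1 was not called, and in TGFb3 4 rose and 1 fell. PAPPA, a metalloprotease that cleaves IGFBP4, measured 0.887, 1.27 and 1.03 TPM in the controls, 9.17, 9.05 and 8.89 TPM with high calcium and 2.23, 1.81 and 1.74 TPM in TGFb3. It rose by log2 2.29 ± 0.121 in high calcium (adjusted p = 1.4e-07), 0.51 ± 0.121 in TGFb3 (adjusted p = 0.0046), and was higher in high calcium than in TGFb3 by 1.78 ± 0.121 (adjusted p = 7.4e-07). Its substrate IGFBP4 was listed at 0 throughout.

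STC2, a stanniocalcin that inhibits PAPPA, rose from 83.2 ± 3.65 to 199 ± 5.7 TPM in high calcium (log2 1.25 ± 0.061, adjusted p = 8.2e-08) and went down to 58.4 ± 4.8 TPM in TGFb3 (-0.51 ± 0.061, adjusted p = 4.9e-05). The relatives PAPPA2 and STC1 stayed below the filter and are named after their values were seen. PAPPA2 was at 0.0799 to 0.142 TPM in the controls, 1.38 to 1.63 TPM in high calcium and 0.367 to 0.529 TPM in TGFb3. STC1 was at 0.206 to 0.25, 1.18 to 1.51 and 0 to 0.144 TPM. HTRA1, a secreted serine protease, rose from 67.9 ± 3.9 to 154 ± 22.5 TPM in TGFb3 (log2 1.16 ± 0.087, adjusted p = 1.6e-06), and was at 77.6 ± 0.507 TPM in high calcium (adjusted p = 0.077).

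Negative regulators of the receptors and of AKT were higher in 13 of 17 cases in high calcium, lower in 2 and not called in 2 (8, 3 and 6 after median ratio rescaling), beside 46.1% of all symbols higher and 17% lower. The median log2 difference was 0.42, beside 0.22 for all symbols. TRIB3, a pseudokinase that binds AKT, rose from 70.5 ± 2.39 to 245 ± 3.61 TPM (log2 1.78 ± 0.041, adjusted p = 5.6e-10). SOCS3, a feedback inhibitor of cytokine and insulin receptors, rose by 0.97 ± 0.107. In TGFb3 9 were higher, 4 lower and 4 not called, with the same counts after median ratio rescaling. GRB10, an adaptor that binds and inhibits IGF1R and INSR, measured 28.2, 27.7 and 28.1 TPM in the controls, 45.2, 46.1 and 42.3 TPM with high calcium and 84.8, 83.7 and 93.8 TPM in TGFb3. GRB10 rose by log2 1.61 ± 0.055 in TGFb3 (adjusted p = 1e-08), and high calcium was lower than TGFb3 by -0.96 ± 0.055 (adjusted p = 2.3e-07). DDIT4, an inhibitor of mTOR complex signalling, went from 503 ± 18.7 to 240 ± 13.4 TPM in TGFb3 (-1.06 ± 0.046, adjusted p = 4.6e-08) and stood at 655 ± 6.03 TPM in high calcium.

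Among 13 tested adaptors 8 were higher in high calcium, 1 lower and 4 not called (5, 3 and 5 after median ratio rescaling), near the 63.1% of all symbols that were called. CBLB, a ubiquitin ligase, rose from 4.84 ± 0.425 to 14.8 ± 1.02 TPM, and DOK1, a docking protein that overlaps LOXL3, from 0.71 ± 0.136 to 3.89 ± 0.459 TPM. LOXL3, on the opposite strand, was at 2.69, 4.0 and 1.11 TPM in control, high calcium and TGFb3. Where the genes overlap, reads of DOK1 and LOXL3 cannot be told apart here, as the strandedness is not given. DOK1 passed the filter of 1 TPM only through high calcium. In TGFb3 5 were higher, 2 lower and 6 not called (7, 2 and 4), among them SOS2, a RAS activator, which rose by log2 0.77 ± 0.053. IRS4 was listed at 0 in all 9 samples.

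In the PI 3-kinase, AKT and mTOR list 12 of 24 were higher in high calcium, 3 lower and 9 not called, but 7, 7 and 10 after median ratio rescaling. These counts are near the shares of all symbols (46.1% higher and 63.1% called) and are no result about the list. The regulatory subunit PIK3R3 rose from 6.02 ± 0.131 to 13.1 ± 0.289 TPM in high calcium (log2 1.00 ± 0.087) and fell to 3.24 ± 0.337 TPM in TGFb3 (-0.73 ± 0.087). In TGFb3 9 were higher, 8 lower and 7 not called, with the same counts after median ratio rescaling. The catalytic subunit PIK3CD rose from 0.304 ± 0.0366 to 3.57 ± 0.61 TPM in TGFb3, and passed the filter of 1 TPM only through that group. It overlaps CLSTN1 on the opposite strand, which went from 62.6 to 139 TPM. Reads of the pair cannot be told apart here where the genes overlap.

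FOXO factors and target genes were higher in 10 of 15 cases in high calcium, lower in 0 and not called in 5 (7, 2 and 6 after median ratio rescaling), where 46.1% of all symbols were higher and 63.1% called. FBXO32, a ubiquitin ligase of atrophy, rose by log2 1.85 ± 0.103 and the mitochondrial kinase PINK1, which overlaps PINK1-AS, by 1.56 ± 0.052. In TGFb3 6 were higher, 7 lower and 2 not called, with the same counts after median ratio rescaling. PIK3IP1, an inhibitor of PI 3-kinase, rose from 0.283 ± 0.102 to 5.99 ± 0.626 TPM in TGFb3, the group through which it passed the filter of 1 TPM, while the repressor BCL6 went from 35.2 ± 1.07 to 7.66 ± 0.308 TPM (-2.07 ± 0.061, adjusted p = 4e-09).

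**Figure D4:**
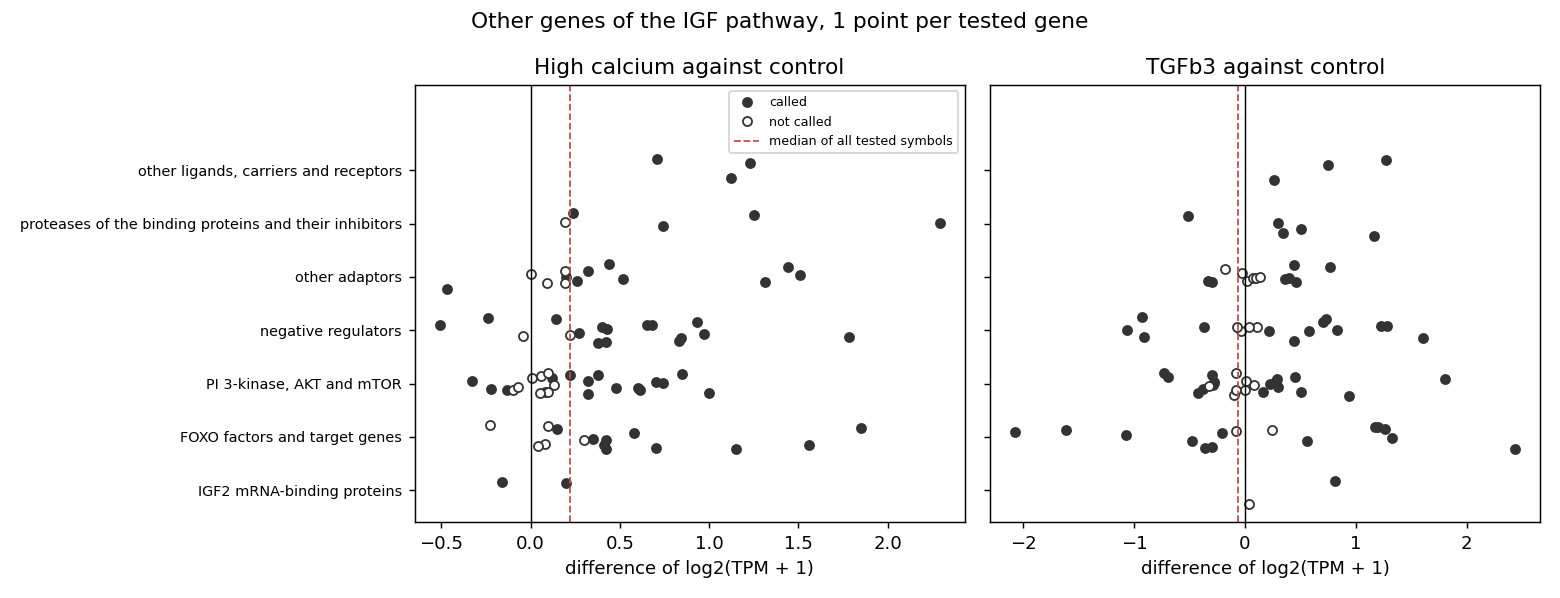
Differences of log2(TPM + 1) for the tested genes of the 7 other lists, high calcium on the left and TGFb3 on the right, 1 point per gene (filled: called, open: not called); the dashed line is the median of all tested symbols. The point at 2.29 on the left is PAPPA, and the lowest point on the right, at -2.07, is BCL6.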

How the data were processed

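The authors deposited 1 table of TPM values for 58288 annotated genes in the 9 samples, with 0 sample columns unmapped. Per the submitters' processing notes HISAT2 was used with hg38. The sources used here do not give the program that made TPM, the annotation release or the strandedness. TPM sums to a fixed total per sample and keeps no depth, so no counting interval is given. The 1932 entries that share 253 symbols were summed. The 13968 symbols averaging 1 TPM or more were tested as log2(TPM + 1) with limma 3.58.1 in R 4.3.3, using a trended empirical Bayes variance, 3 groups and 6 residual degrees of freedom, adjusted over all tested symbols. Ratios were compared by exact two-sided permutation tests (scipy 1.17.1). The method was tested on simulated data.

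Gene coordinates, 1-based, and overlaps come from GENCODE release 29, whose identifiers match those of the table apart from the version in IGFBP6 and IGF1R. Promoter windows come from RefSeq. IGFBP7 had no entry. The genes and lists were chosen with earlier results of these data known. All 10 genes are named. Of each other list the rule names up to 4 called genes with the largest difference, and not all are named. GRB10, DDIT4 and HTRA1 also have values for high calcium, where the rule did not pick them. For likeness the 3 closest genes are named for 3 of the genes. The alternatives were 19 per comparison. They were another pseudocount (0.1), no filter or a minimum of 5 TPM, 3 other scalings, no trend, only the compared groups, the entry with the highest mean per symbol, a replicate block, and leaving out each sample. Replicate numbers did not pair the samples.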

Additional observations from a re-analysis of the deposited data

How the results depend on the processing

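All 13 called differences of the 7 tested genes kept their direction and their call in all 245 values that the alternatives gave for them, over the 19 alternatives per comparison. Many alternatives cannot move the difference itself in this balanced design. These are the filters, no trend, the replicate block, only the compared groups, and leaving out a sample of the group not compared. For them only the error and the call could change. IRS1 was not tested with a minimum of 5 TPM. The exceptions lie among the 8 differences that were not called. In high calcium against control IGFBP7 changed sign after median ratio rescaling (-0.18), quantile normalisation (-0.16), with mitochondrial genes left out (-0.14) and without high calcium 2 (leaving out 1 sample gave -0.02 to 0.13). IGF1R changed sign without control 3 or high calcium 3 and INSR without control 3. Leaving out 1 sample gave -0.05 to 0.05 for IGF1R, and for INSR -0.13 to 0.05 in high calcium and -0.16 to 0.01 in TGFb3. Control 3 was the highest control for 6 of the 7 genes. INSR between the treatments went from 0.04 to -0.21, -0.29 and -0.13 under the same 3 scalings, and was called after quantile normalisation. IGF2BP3 in high calcium went from 0.20 to -0.04 and -0.02 after median ratio rescaling and quantile normalisation. Of the 7 genes, 1 was called lower in high calcium against control, but 3 after median ratio rescaling, 3 after quantile normalisation, 2 with mitochondrial genes left out and 0 with a minimum of 5 TPM, which IRS1 does not reach. That minimum also left 0 called lower in TGFb3. Between the treatments 5 in place of 2 were called lower after quantile normalisation.

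Of all symbols called in high calcium against control 73.0% were higher (6438 higher, 2378 lower), and 50.4% after median ratio rescaling (4240 and 4174), 47.2% after quantile normalisation (3991 and 4464) and 55.1% with mitochondrial genes left out (4649 and 3791). Between the treatments 75.7% were higher in high calcium (7038 and 2256), and 50%, 51.1% and 59.5% under these scalings (4211 and 4216, 4364 and 4181, 5100 and 3468). The cause was not tested. The GGAAA letters were in 3 rather than 5 genes when only the bases before the start were searched. The deviations of samples with the same replicate number correlated at -0.075 to -0.004 over 9 pairs, against -0.035 to 0.09 over 18 other pairs, so the numbers did not pair the samples, and no sample correlated best with its own number. With the replicate block the counts for high calcium against control were 6258 higher and 2299 lower, and the one member whose call changed was IGFBP3 between the treatments (-0.32, adjusted p = 0.049). The depth behind values under 1 TPM is unknown, such as those of IGFBP2 and IGFBP5, of IRS1 in the treated groups and of IGFBP3 in the controls.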

Other observations

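Of the IGF2 mRNA-binding proteins, cytoplasmic proteins that bind IGF2 and many other transcripts, IGF2BP2 and IGF2BP3 were tested, and IGF2BP1 was below 1 TPM in all 9 samples. IGF2 itself was listed at 0 in all 9 samples. IGF2BP3, which overlaps MALSU1, was at 29.8 ± 1.3 TPM in the controls and rose to 53.0 ± 4.06 TPM in TGFb3 (log2 0.81 ± 0.062, adjusted p = 2e-06). In high calcium IGF2BP3 was at 34.3 ± 0.89 TPM (0.20 ± 0.062, adjusted p = 0.018), a call that was lost under the 3 other scalings and without control 1, control 3 or high calcium 2. IGF2BP2, which overlaps IGF2BP2-AS1, was at 83.5 ± 2.65 TPM in the controls, 74.6 ± 3.12 TPM in high calcium and 86.2 ± 4.09 TPM in TGFb3. Its difference of -0.16 ± 0.05 in high calcium (adjusted p = 0.017) was not called without control 2 (adjusted p = 0.062) or high calcium 3 (adjusted p = 0.07).

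Within the introns of IGF1R, on the same strand, the table lists the noncoding transcript AC118658.1. Its mean was 0.463 TPM in the controls, 0.616 TPM in high calcium and 2.92 TPM in TGFb3, the group in which IGF1R was highest. Single samples ran from 0 to 3.79 TPM. Reads of AC118658.1 cannot be told apart here from those of unspliced IGF1R RNA.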
